A study of Rattus norvegicus with 24 samples.

Results

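The lungs of rats that inhaled 1500 ppm hexanal were compared with the lungs of rats that inhaled 600 ppm. Hexanal is a volatile straight-chain aldehyde that microbes emit and that also arises when fatty acids are oxidised. All animals were Fischer-344 rats, 7 to 8 weeks old at the start according to the labels, and they breathed the vapour for 4 h/day on 5 days/week. The labels' protocol gives 5 weeks of exposure and doses in mass per volume of air, whereas the sample names give ppm and the study's methods a shorter time. The groups were defined by the labelled dose alone, but the comparison was chosen with earlier results of these data known. The members were 12 of the 24 rats of the series, namely 6 high-dose rats at 1500 ppm and 6 low-dose rats at 600 ppm, with 3 males and 3 females in each group. The other 12 rats, 6 in clean air and 6 at 1000 ppm, entered no comparison and are given only where their levels show how a gene varied. Both groups had inhaled hexanal, so every difference below is between 2 doses and not between hexanal and air. Each array held the RNA of 1 lung from 1 animal. The time of day at which the lungs were taken is not given in the sources used here.

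Each lung was measured on a one-colour Agilent rat expression array. Levels are log2 fluorescence signals minus the 75th percentile of the same array, so a level of 0 lies at that percentile, and a difference of 1 is a doubling. Levels can be compared between rats for 1 probe but not between genes. Of the 12 lung markers, 11 were well above background on all 12 arrays, and the exception was the macrophage receptor Marco. The share of probes well above background was 70.66% to 79.7% in the low-dose group and 72.86% to 81.63% in the high-dose group. In males the groups did not overlap in that share, at 70.66% to 75.38% against 79.51% to 81.63%. Markers of other tissues varied from rat to rat. Heart muscle genes spanned a wide range in both groups, and the brown fat gene Ucp1 and the fat gene Adipoq stood high in the high-dose females 36 and 37. No slide held both a low-dose and a high-dose rat. The 3 high-dose males shared a slide, and so did the 3 high-dose females. The slide and the dose can therefore be told apart only through the middle-dose rats, which shared slides with both groups.

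No gene passed an adjusted p of 0.05 by limma with Benjamini-Hochberg adjustment over 20829 genes, although 1649 had an unadjusted p under 0.05, which is 7.92% of them. By the threshold of the study, a fold change of at least 1.5 with an unadjusted p under 0.05, 166 genes were higher at 1500 ppm (0.797% of those tested) and 62 were lower (0.298%). A gene is named as called, raised or lowered below when it passed that threshold, and none of these calls survived the adjustment. The 6 high-dose rats lay above all 6 low-dose rats for 63 genes (0.302%) and below all of them for 66 genes (0.317%). Over all genes the median difference was 0.017 and 54.9% of genes were higher at 1500 ppm. Of the 228 called genes (1.09%), 86 were well above background on fewer than 5 arrays of a group. With the slide as a fixed block over all 24 arrays the counts were 346 higher and 225 lower, and the adjusted count stayed at 0.

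The members of the circadian clock held the most calls among the 38 gene lists. The lists were chosen with earlier results of these data known, so this ranking is not independent of the data. The clock is a feedback loop in which Bmal1 pairs with Clock or Npas2 to drive the Per, Cry and Nr1d genes, whose proteins then repress Bmal1 or its activity. It runs in nearly all tissues, the lung included, and its output factors Dbp and Tef carry the rhythm to other genes. Of 15 clock genes tested, 6 were raised at 1500 ppm and 3 were lowered, against 0.797% and 0.298% of all genes. The raised genes were the output factors Dbp and Tef and the repressors Ciart, Nr1d1, Per2 and Nr1d2. The lowered genes were Bmal1 and its partner Npas2, both activators, and Nfil3, a repressor of the genes that Dbp activates. Their adjusted p ranged from 0.36 to 0.60. Ciart was tested only through the high-dose arrays. Among genes well above background on all 12 arrays, 5 of 14 clock genes were raised and 3 lowered. Of all 18820 such genes 68 were raised and 55 lowered.

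Dbp had levels of 0.05, -0.02 and 0.28 in the low-dose males and 0.72, 3.04 and 3.01 in the low-dose females. At 1500 ppm it was at 3.43, 2.17 and 3.56 in males and 3.12, 3.06 and 2.68 in females. All 3 high-dose males were above all 3 low-dose males, whereas the low-dose females 27 and 28 were within the range of the high-dose group. The difference in Dbp was 1.82 (SE 0.57, adjusted p = 0.471), and its other probes gave 1.69 and 1.89. Bmal1 ran the opposite way, at 0.52, 0.62 and 0.48 in the low-dose males and 0.42, -0.55 and -0.51 in the low-dose females. In the high-dose group Bmal1 was at -0.92, -0.22 and -1.07 in males and -0.89, -0.75 and -0.69 in females. The rats 27 and 28 were again the low-dose animals that overlapped with the high-dose group. The difference in Bmal1 was -0.92 (SE 0.23, adjusted p = 0.362).

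The middle-dose rats, which shared slides with both groups, varied widely in these genes. Dbp was at 0.28 and 0.44 in the middle-dose males 11 and 12, which shared a slide with the low-dose males 7 and 8. It was at 2.99 in the middle-dose male 13, which shared a slide with the 3 high-dose males. Bmal1 was at 0.50, 0.37 and -0.82 in the same 3 rats. The middle-dose female 33, which shared a slide with the 3 high-dose females, had Dbp at 1.82 and Bmal1 at 0.34, both outside the range of those females (2.68 to 3.12 and -0.89 to -0.69). In clean air Dbp was at -0.51 to 0.58 in males and at 0.75 to 2.39 in females, and the sexes lay on different slides. In each sex these levels lay below those of the high-dose rats (2.17 to 3.56 in males and 2.68 to 3.12 in females). With the slide as a fixed block the difference in Dbp was 0.38 and that in Bmal1 was -0.45, and none of the 15 clock genes was called.

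The promoters of the called clock genes were searched because the list held the most calls, in both directions. RefSeq promoters on the rat build GRCr8, from 250 bases before to 50 bases after the start of the gene, were found for all 9 called genes and for 14 of the 15 tested. Both strands were searched for the E-box CACGTG, which Bmal1 and its partners bind, for AGGTCA, the core that Nr1d and ROR proteins bind, for the D-box TTANGTAA of Dbp, Tef and Nfil3, and for the cAMP element TGACGT. An E-box lay in 4 of the 16 windows of the 14 genes and in 6.42% of all 33469 promoters. The 4 windows were those of Bhlhe40, Ciart and Tef and 1 of Nr1d1, and another window of Nr1d1 held no E-box. AGGTCA was found in Bmal1 and Nr1d2 and in 16.2% of all promoters. The D-box was found in Per2 alone and in 2.24% of all promoters, and TGACGT in none of the 14 genes and 7.94% of all promoters. The windows of Dbp, Nfil3 and Npas2 held none of the 4 motifs. The promoters of a raised gene with E-boxes and of a lowered and a raised gene with AGGTCA are shown, 5′ to 3′ on the strand of the gene, with the motifs in capitals. Ciart lies on the minus strand at chr2:186112197-186112496, Bmal1 on the plus strand at chr1:176766078-176766377 and Nr1d2 on the plus strand at chr15:9954784-9955083.
Ciart: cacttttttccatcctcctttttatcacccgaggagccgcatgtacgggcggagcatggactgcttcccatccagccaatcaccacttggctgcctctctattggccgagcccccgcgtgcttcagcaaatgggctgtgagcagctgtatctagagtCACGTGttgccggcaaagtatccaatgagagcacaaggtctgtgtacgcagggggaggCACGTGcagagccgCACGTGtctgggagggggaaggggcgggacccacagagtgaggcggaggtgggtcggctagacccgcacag
Bmal1: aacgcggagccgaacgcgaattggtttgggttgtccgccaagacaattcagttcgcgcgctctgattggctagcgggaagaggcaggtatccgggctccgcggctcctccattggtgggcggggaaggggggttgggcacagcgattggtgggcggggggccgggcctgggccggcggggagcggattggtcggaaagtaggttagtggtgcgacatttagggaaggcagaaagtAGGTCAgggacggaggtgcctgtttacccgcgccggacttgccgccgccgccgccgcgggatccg
Nr1d2: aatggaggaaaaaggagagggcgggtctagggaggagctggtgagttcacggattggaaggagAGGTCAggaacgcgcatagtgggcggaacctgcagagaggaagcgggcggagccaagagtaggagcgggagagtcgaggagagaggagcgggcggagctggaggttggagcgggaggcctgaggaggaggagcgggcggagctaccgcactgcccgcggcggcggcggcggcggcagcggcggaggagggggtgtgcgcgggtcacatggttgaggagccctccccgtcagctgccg
The E-boxes of Ciart began 93, 35 and 21 bases before its start. The AGGTCA of Bmal1 began 15 bases before its start and that of Nr1d2 187 bases before.

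Ciart, a repressor of the Bmal1 complex, was at -7.56 to -5.59 (median -6.70) in the low-dose rats and at -6.33 to -4.85 (median -5.25) in the high-dose rats. The groups overlapped, and the gene was well above background on only 2 of 6 low-dose arrays but on 5 of 6 high-dose arrays. Nr1d2, a nuclear receptor that represses Bmal1, was at -3.56, -3.64 and -3.64 in the low-dose males and -1.89, -2.54 and -2.14 in the high-dose males. In females it was at -2.62, -2.61 and -2.46 against -2.03, -2.49 and -2.27. Its difference between the doses was 1.42 in males and 0.30 in females, and the difference between the sexes passed the test (adjusted p = 0.0346). Nr1d1, its close relative, was at -1.51, -2.06 and -2.55 in low-dose males and 0.34, -0.55 and 0.17 in high-dose males, with no overlap. In females Nr1d1 was at -1.27, -0.98 and -0.76 against -0.37, -1.13 and -1.27, which overlapped. The difference was 2.02 in males and 0.08 in females (adjusted p for the difference between the sexes = 0.0725).

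Per2, a core repressor, ranged from -2.77 to -0.81 (median -2.27) at 600 ppm and from -1.58 to -0.46 (median -1.16) at 1500 ppm. The low-dose females 27 and 28 held its highest low-dose levels, at -0.81 and -1.03. Tef was at 0.22 to 1.34 (median 1.15) and at 0.99 to 2.46 (median 1.59), and its 2 highest levels were in the high-dose females 36 and 37. Nfil3 ranged from -2.81 to -1.37 at 600 ppm and from -3.40 to -2.68 at 1500 ppm, with a difference of -0.96 (SE 0.25). Npas2 fell by 0.77 on the log2 scale, from a median of 0.40 to one of -0.69, but its other probe gave -0.03. The 6 clock genes without a call moved little. Cry2 differed by 0.33, Bhlhe40 by 0.30, Per3 by 0.26, Clock by -0.18, Per1 by -0.08 and Cry1 by -0.01. Other probes of Per3 gave 0.84 and 0.71, so the probes of that gene disagreed in size. In a fit of the males alone 5 clock genes were raised and 3 lowered, beside 608 and 130 of all 20829 genes. In a fit of the females alone no clock gene was called, beside 304 raised and 481 lowered of all genes. With the high-dose females 36 and 37 left out 4 clock genes were raised and 3 lowered, beside 120 and 64 of all 20829 genes.

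**Figure D1:**
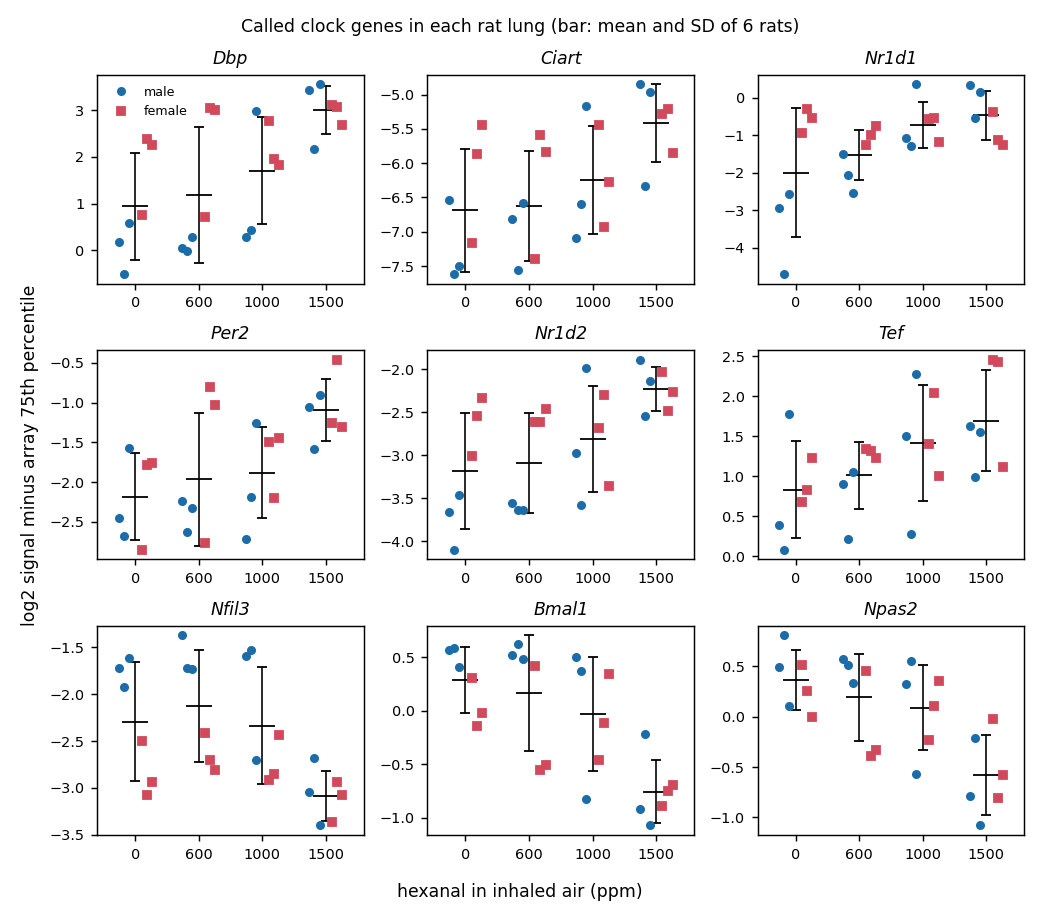
Levels of the 9 called clock genes in the 24 lungs by hexanal dose in ppm on the x axis, as log2 signal minus the 75th percentile of the array on the y axis. Circles are males, squares are females and bars are the mean and SD of 6 rats. The 3 high-dose males stood apart from the 3 low-dose males for Dbp (2.17 to 3.56 against -0.02 to 0.28), while the females overlapped.

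The immediate early genes, which cells transcribe within minutes of a stimulus, were mostly lower at 1500 ppm. Of 25 tested, 18 were lower with a median difference of -0.33, 4 were lowered by the threshold and 1 was raised, against 0.298% and 0.797% of all genes. Fos, a subunit of the AP-1 transcription factor, was at -0.53, -1.81 and -0.40 in low-dose males and -2.42, -0.93 and 0.26 in low-dose females. At 1500 ppm it was at -3.06, -1.86 and -3.03 in males and -3.91, -2.87 and -0.80 in females. The groups overlapped, since the low-dose female 26 lay below the high-dose rats 17 and 38, and rat 38 lay above 3 low-dose rats. The difference in Fos was -1.62 (SE 0.54, adjusted p = 0.522), and that in males (-1.74) was close to that in females (-1.49). In clean air the mean of Fos was -0.17 and at 1000 ppm -0.93.

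Dusp1, a phosphatase that switches off MAP kinases, was at -0.99 to 0.07 (median -0.17) in the low-dose rats and -2.06 to -0.45 (median -1.16) in the high-dose rats. Klf2, a transcription factor of quiescent endothelium and T cells, was at -0.35 to 0.53 and -1.14 to -0.22. Nr4a1, an orphan nuclear receptor, differed by -0.64, with -1.31 in males and 0.03 in females. The raised member was Ccn2, a matricellular growth factor target, at 1.86 to 2.34 (median 2.21) and 1.96 to 3.40 (median 2.83). Its lowest high-dose level was in the female 36. Members that missed the threshold included Egr1 (-0.65), Klf4 (-0.53), Btg2 (-0.49), Junb (-0.43) and Jun (-0.41). With the slide as a fixed block 7 members were lowered and none raised, beside 225 and 346 of all 20829 genes. With the slide as a random block of the 12 arrays 2 were lowered and none raised, beside 34 and 91 of all genes.

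Dusp1 is also a glucocorticoid target, and 13 of 14 genes of that list were lower, with a median difference of -0.24. Over all genes the median was 0.017 and 54.9% were higher. Dusp1 was the only called member, 1 of 14 against 0.298% of all genes. Fkbp5, a standard marker of glucocorticoid action, was the only member that was higher, by 0.08. For 2 members, Dusp1 not among them, all 6 high-dose rats lay below all 6 low-dose rats, as for 0.317% of all genes. Heat shock genes were lower for 12 of 13 members, with a median of -0.20. By the threshold 2 of the 13 were lowered, against 0.298% of all genes. Hsph1, an exchange factor for Hsp70, was lowered from a median of -1.01 to one of -1.59. Dnaja1, an Hsp40 co-chaperone, was lowered from 3.02 to 2.25. Neither was called with the rats 36 and 37 left out. The study's own list of genes by GO term held 7 tested members, of which 1 was lowered, Nr4a1, against 0.298% of all genes. That list was chosen on these samples.

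Among genes that metabolise foreign compounds in the airways, the lung monooxygenase Cyp4b1 was lowered. It was at 2.76, 2.30 and 2.31 in low-dose males and 2.31, 1.93 and 2.36 in low-dose females, and at 1.95, 1.76 and 1.66 in high-dose males and 1.73, 1.63 and 1.51 in high-dose females. The high-dose male 16 and the low-dose female 27 were the only overlap. The difference was -0.62 (SE 0.12, adjusted p = 0.296), with -0.67 in males and -0.57 in females, and -0.24 at the smallest over the other settings. Of the 13 monooxygenases and related enzymes tested, 11 were lower, with a median of -0.21, beside a median of 0.017 and 54.9% of genes higher over all genes. Cyp4b1 was the only called member, 1 of 13 against 0.298% of all genes.

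Cyp2b21, which is not on that list, ranged from -2.40 to -1.47 at 600 ppm and from -3.46 to -2.40 at 1500 ppm, and the low-dose male 8 and the high-dose male 16 were nearest to each other, both at -2.40 after rounding. Its difference was larger in females (-1.37) than in males (-0.29), with an adjusted p of 0.074 for the difference between the sexes. Cyp2b2, named after its values were seen because its p was the smallest of all genes, was at 3.78 to 4.07 against 3.06 to 3.50, a difference of -0.61 (SE 0.092, adjusted p = 0.283). The Cyp2b genes are close in sequence, and a probe may not tell them apart. Aldehyde and alcohol dehydrogenases and reductases, the enzymes that clear hexanal and its relatives, showed no call among 22 tested, with 11 higher and 11 lower. The differences of the 22 ran from -0.44 to 0.57, with Aldh2 at -0.06 and Aldh3a1 at -0.18. None of 26 Nrf2 targets and antioxidant genes was called, with Nqo1 at 0.26 and Hmox1 at -0.35.

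**Figure D2:**
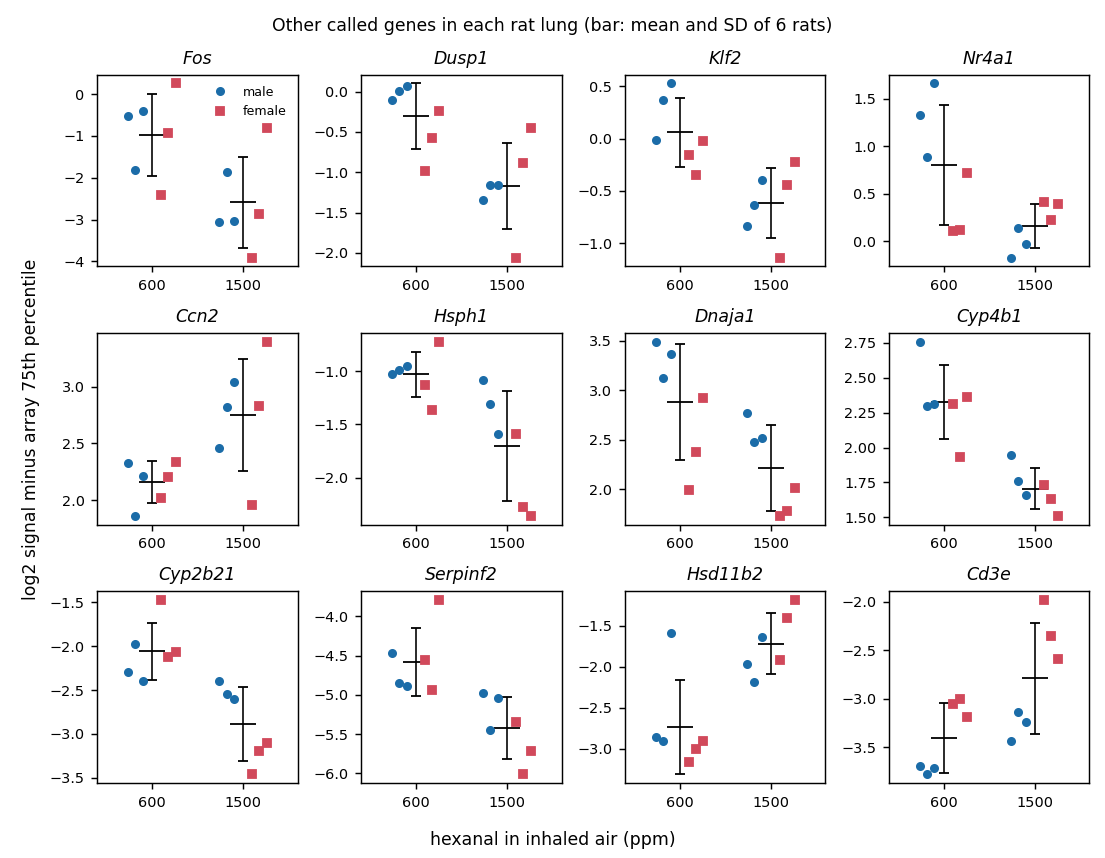
Levels of 12 other called genes in the 12 lungs by hexanal dose in ppm on the x axis, as log2 signal minus the 75th percentile of the array on the y axis. Circles are males, squares are females and bars are the mean and SD of 6 rats. Serpinf2 and Cyp2b21 did not overlap between the doses, and the others shown overlapped in at least 1 rat.

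The largest rises among the 81 called genes that were well expressed and moved the same way in both sexes were mixed in kind. Retn, the hormone resistin that fat cells secrete, was at -3.89, -5.17 and -6.03 in low-dose males and -6.08, -3.97 and -4.60 in low-dose females. At 1500 ppm it was at -4.82, -4.72 and -4.95 in males and -1.52, -0.66 and -1.49 in females. The rise of 1.93 (SE 0.82, adjusted p = 0.615) was therefore in the 3 high-dose females, with 3.66 in females and 0.20 in males. With the slide as a fixed block over 24 arrays its sign turned, to -0.17. Thrsp, a regulator of fat synthesis, was at -2.02 and -1.79 in the females 36 and 37 and at -4.57 to -3.68 in the other high-dose rats, against -4.95 to -4.07 at 600 ppm.

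Markers of fat moved with these genes in part. Ucp1, which defines brown fat, was at -0.71 and -1.83 in the females 36 and 37 and at -6.73 to -5.74 in the other high-dose rats, against -6.89 to -6.17 at 600 ppm. Adipoq, the fat hormone adiponectin, was at -1.08 and 0.23 in the same females, and at -8.40 to -5.43 in the other high-dose rats. In the female 38 Adipoq was at -7.88 and Ucp1 at -6.72, while Retn was at -1.49. High levels of these genes were not limited to high-dose females. The middle-dose male 13 had Retn at -0.68, Thrsp at -2.17, Ucp1 at -1.21 and Adipoq at -0.48. In the other middle-dose rats Ucp1 was at -6.98 to -5.71 and Adipoq at -5.54 to -2.54. Of the 2 fat markers listed 1 was measured, and the summed level of the brown fat markers was -0.21 to 0.76 at 600 ppm and -0.04 to 1.81 at 1500 ppm. Without the rats 36 and 37 the difference was 0.96 for Retn and 0.35 for Thrsp, and neither was called. In whole lung, fewer cells of a type and less RNA per cell cannot be told apart.

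**Figure D3:**
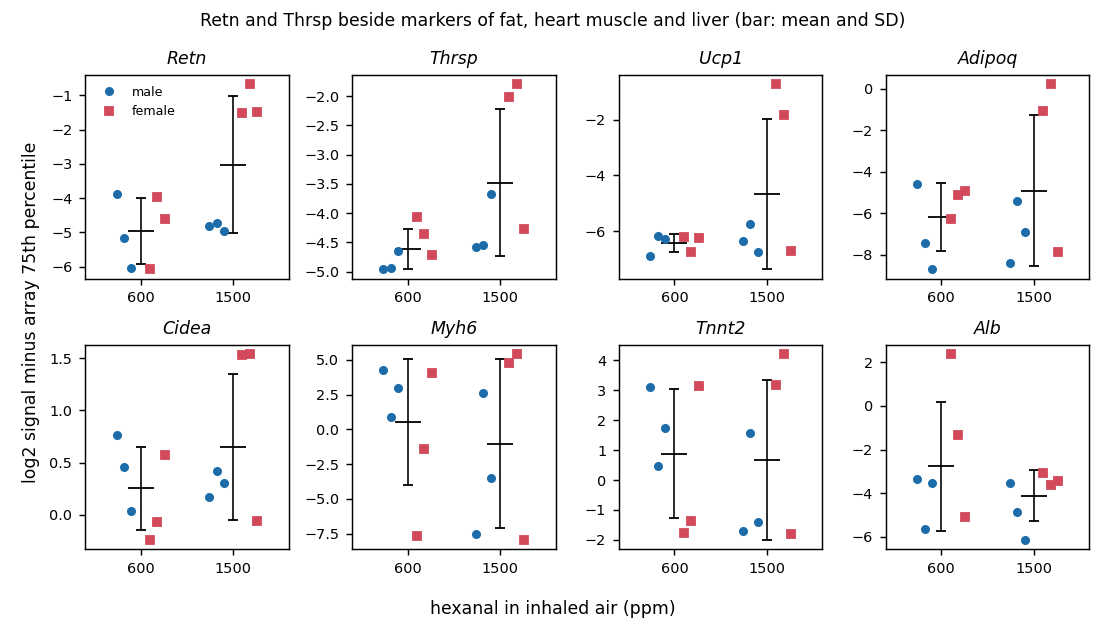
Levels of Retn and Thrsp beside markers of brown fat (Ucp1, Cidea), fat (Adipoq), heart muscle (Myh6, Tnnt2) and liver (Alb) in the 12 lungs, by hexanal dose in ppm on the x axis and as log2 signal minus the 75th percentile of the array on the y axis. Circles are males, squares are females and bars are the mean and SD of 6 rats. The 2 highest levels of Ucp1 and Adipoq belonged to the high-dose females 36 and 37, while Retn was high in all 3 high-dose females.

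Lipg, a lipase of endothelial cells, was raised by 1.16 (SE 0.35), from -6.31 to -3.88 (median -4.47) to -4.09 to -2.99 (median -3.66), and the size was alike in males (1.16) and females (1.15). Hsd11b2, which inactivates glucocorticoids, was at -2.86, -2.91 and -1.59 in low-dose males and -3.16, -3.01 and -2.91 in low-dose females. It was at -2.18 to -1.18 in the high-dose rats, so only the low-dose male 8 overlapped, and the difference was 1.03 (SE 0.26, adjusted p = 0.362). The clean-air mean of Hsd11b2, -2.15, lay between them. Erp27, a protein of the endoplasmic reticulum, was spread over -5.31 to -1.65 and -4.25 to -0.84, the olfactory receptor Or6b13 over -5.94 to -4.35 and -4.97 to -2.63, and the G protein subunit Gnb3 over -6.36 to -4.51 and -4.97 to -3.24. The groups overlapped for these 3 genes. Pvalb, a calcium buffer of fast muscle, was raised by 0.82, with groups at -5.84 to -4.41 and -4.62 to -3.60.

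Among the largest falls outside the clock, Serpinf2, the plasmin inhibitor, was at -4.94 to -3.79 against -6.01 to -4.98, with no overlap and a difference of -0.84 (SE 0.22, adjusted p = 0.371). S100g, a calcium-binding protein, fell by 1.04 on the log2 scale, with its lowest levels of 2.13, 2.09 and 2.01 in the 3 high-dose males. Low-dose rats also reached down to 2.41, and the clean-air male 1 was at 2.06. Fibin was at -0.36 to 0.95 and -1.96 to 0.34, and its 3 lowest levels were in the high-dose females. Tubb3, a tubulin of neurons, ranged from -5.70 to -3.90 and from -6.30 to -5.23. The open reading frame C9h6orf141 was lowered by 0.92 through its brightest probe, while its other probe gave 0.36, so its direction depended on the probe. Hbb-b1, a globin of red cells, was at 6.77 to 7.55 and 5.92 to 7.30, and 7 of 8 red cell genes were lower with a median of -0.46. Globin genes are close in sequence, and a probe may not tell them apart.

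Lists of immune cells showed small shifts. Of 15 T cell genes, 13 were higher, with a median of 0.38, beside 0.017 over all genes. Cd3e, a chain of the T cell receptor complex, was the only called member, 1 of 15 against 0.797% of all genes. It was at -3.69, -3.78 and -3.72 in low-dose males and -3.06, -3.00 and -3.19 in low-dose females, against -3.44, -3.14 and -3.24 and -1.98, -2.35 and -2.59 at 1500 ppm. Within each sex the high-dose rats were above the low-dose rats, while the sexes differed in level. Cd3g differed by 0.48, Cd8b by 0.43 and Cd4 by -0.01. With the rats 36 and 37 left out the T cell median was 0.18 and with the slide as a fixed block it was 0.12. Interferon-induced genes were higher for 20 of 21 members without a call, with a median of 0.22, Rsad2 at 0.46 and Ifit2 at 0.39. All 8 MHC class II genes were lower without a call, with a median of -0.11. Macrophage genes were lower for 13 of 17, with Cd68 at -0.45.

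Genes of the lung epithelium held 1 call, that of Cyp4b1, which is also among the airway secretory genes. Of 12 airway secretory genes 7 were lower, with a median of -0.19 and differences from -0.86 for Scgb3a1 to 0.72 for Itln1. Of 13 surfactant and type II cell genes, 12 were lower and none was called, with a median of -0.21. With the slide as a fixed block 6 of these 13 were higher, and the median was -0.04. Sftpc, the surfactant protein that marks type II cells, was at 7.55 to 8.00 and 7.59 to 8.11, and Sftpb at 7.02 to 7.34 and 7.02 to 7.28. Motile cilia genes were higher for 12 of 13 without a call, with a median of 0.12, beside 54.9% of all genes. By sex, 5 of the 13 were higher in males (median -0.08) and all 13 in females (median 0.28). With array weights 6 of the 13 were higher. Tnc, a matrix glycoprotein of repair, was the only raised member of 18 matrix genes, against 0.797% of all genes. It was at -3.56 to -2.70 and -3.31 to -1.81. Fancd2, a DNA repair gene, was the only called member of 28 cell cycle genes, against 0.298% of all genes lowered. It fell by 1.13 on the log2 scale and was well above background on 4 of 6 low-dose arrays. Only 5 low-dose rats had a value, at -6.45 to -3.40, which overlapped with -6.72 to -5.40 at 1500 ppm. The call held in 5 of 12 fits with 1 rat left out. None of 17 p53 targets, 17 TNF and NF-kB genes, 21 ER stress genes, 24 oxidative phosphorylation genes or 24 ribosomal protein genes was called.

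**Figure D4:**
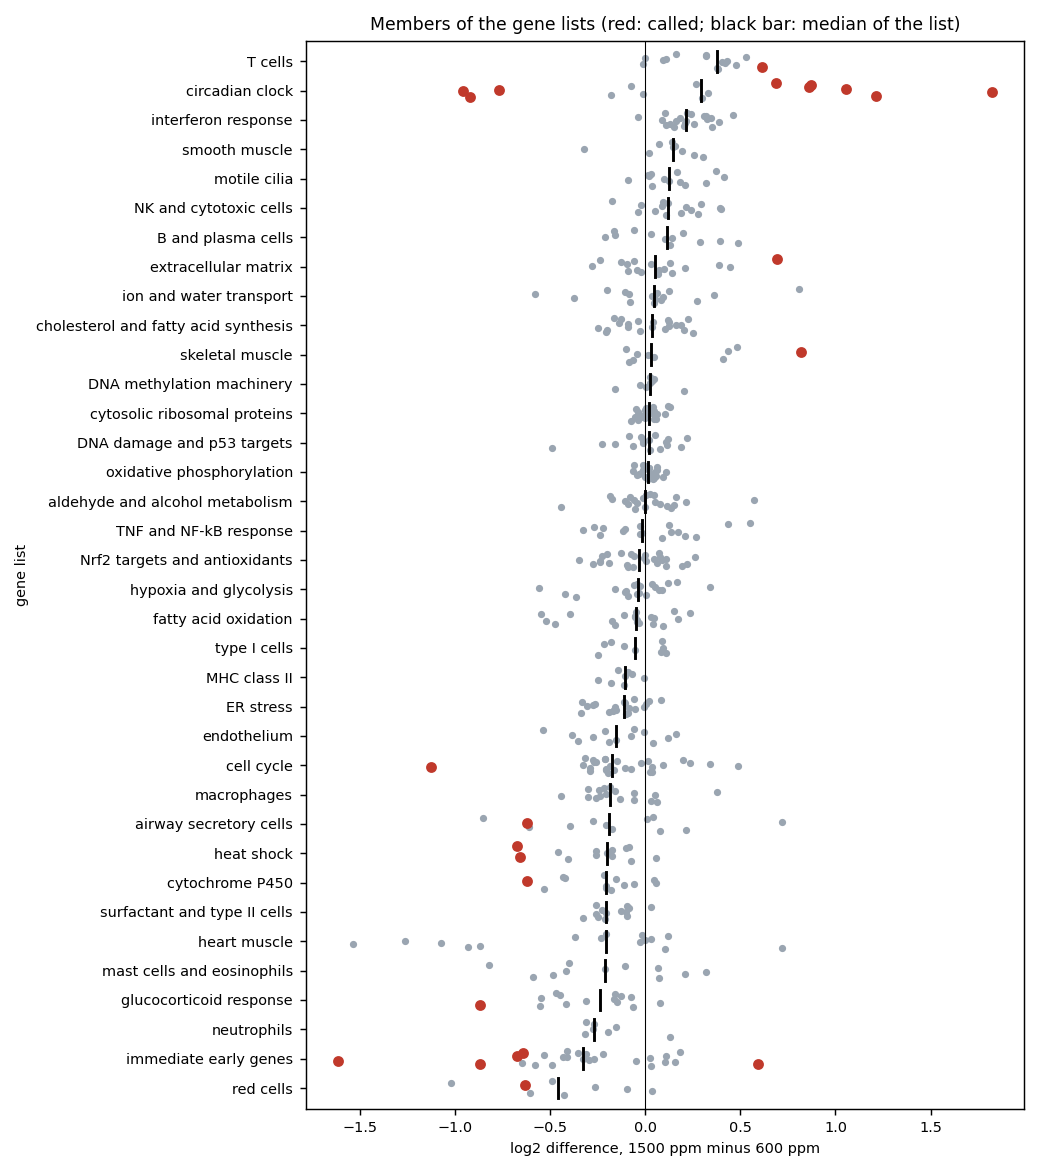
Differences between 1500 ppm and 600 ppm on the log2 scale (x axis) for the tested members of 36 gene lists (y axis), ordered by median. Each point is a gene, red points are called genes and black bars are the medians of the lists. The clock list had the most called members, 6 raised and 3 lowered, and the immediate early genes had a median of -0.33.

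For 419 genes (2.01% of 20829) the sexes differed in how the doses compared, at an adjusted p of 0.05 by the limma interaction test. Of these, 393 were higher at 1500 ppm in males and lower in females, 19 ran the opposite way and 7 had the same sign in both sexes. A gene symbol was matched for 80 of the 419, against 12293 of all 20829 tested, so most of them are unnamed probes. The median size of the difference between the sexes was 1.03. Doxl1, a relative of diamine oxidase, was at -3.54, -3.45 and -3.41 in low-dose males and -3.18, -3.12 and -2.91 in high-dose males. In females Doxl1 was at -2.64, -2.78 and -2.41 against -3.46, -3.84 and -3.67, so the order of the doses was reversed without overlap in either sex. Tiam1, an activator of Rac1, differed by 0.08 in males and -1.58 in females (adjusted p = 0.00404). Aqp2, a water channel, differed by 0.35 and -0.71, and Aknad1 by 0.11 and -1.10. The sex difference of Aknad1, 1.21, turned to -0.40 with normexp background correction.

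In the opposite sense, Mal, a protein of membrane rafts, was at -3.06, -3.14 and -2.71 in low-dose males and -3.50, -3.51 and -3.57 in high-dose males. In females Mal was at -3.90, -3.45 and -3.54 against -2.24, -2.77 and -2.74 (adjusted p = 0.00773). Ndrg4 differed by -0.22 in males and 0.60 in females, and Bnc2 by -0.27 and 0.56. In this fit 590 genes were raised (2.83%) and 109 lowered (0.523%) in males, and 331 were raised (1.59%) and 492 lowered (2.36%) in females. The share of probes well above background was higher in all 3 high-dose males than in all low-dose males, and each group of a sex lay on slides of its own. With the slide as a fixed block over 24 arrays 9 genes were left. The part of the share of probes above background was not tested.

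**Figure D5:**
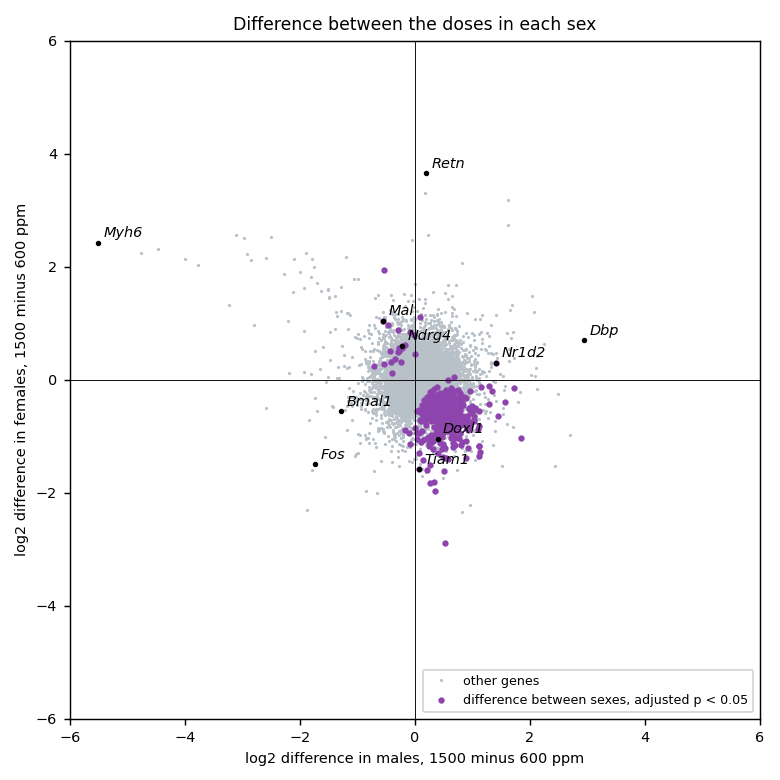
Difference between 1500 ppm and 600 ppm on the log2 scale in males (x axis) and females (y axis) for the 20829 genes. Purple points are the 419 genes whose difference varied between the sexes at an adjusted p of 0.05, most of them above 0 in males and below 0 in females, and black points are named genes.

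Heart muscle genes had the widest differences within each sex. The median of 15 tested members was -2.28 in males and 2.00 in females, and none was called. Myh6, the heart myosin, was at 4.28, 0.90 and 2.96 in low-dose males and -7.50, 2.60 and -3.47 in high-dose males. In females it was at -7.67, -1.40 and 4.06 against 4.77, 5.41 and -7.93. The summed level of 4 heart muscle markers spanned -0.67 to 5.00 at 600 ppm and -0.53 to 6.12 at 1500 ppm, and no marker separated the doses. The liver gene Alb was at 2.37 in the low-dose female 26 and below -1 in all other rats of the comparison.

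Some called genes were not well above background on any low-dose array, so only a lower bound of the change is known. Against the dimmest signals that were well above background, Msx2, a homeobox factor, was at least 2-fold higher at 1500 ppm (adjusted p = 0.527). The bound was at least 1.69-fold higher for the olfactory receptor Or4p7, at least 1.46-fold for the centromere chaperone Hjurp, at least 1.33-fold for Nup210l and at least 1.21-fold for the receptor Gpr84. It was at least 1.1-fold for Rax, at least 1.08-fold for Lpar4 and at least 1.03-fold for Trpv3, and no fold is given for Or12j3, Rhox12 and Astl, whose bounds were under 1. Each of the 11 was well above background on 5 or 6 high-dose arrays. In all, 17 called genes were not well above background on any low-dose array, and none lacked such a signal on every high-dose array. These genes were tested only because they were bright enough at 1500 ppm, so their direction was fixed by the filter. With genes well above background on all 12 arrays alone, 68 were higher and 55 lower of 18820 tested.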

How the data were processed

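Total RNA of rat lung was labelled with Cy3 and hybridised to one-colour Agilent rat arrays, and the authors read the signals with Feature Extraction 11.5.1.1. The deposited values are spot intensity, as corrected by that software (the processed signal). The log2 of this signal minus the 75th percentile of the non-control probes of the array was computed here. The 42877 spots were averaged to 30367 probes, of which 18355 (60.4%) were named through RefSeq accessions of the assembly GRCr8, giving 15443 symbols. The brightest probe stood for each gene with a symbol. A probe without a symbol was counted as a gene of its own, and the shares over all genes include such probes. Genes well above background on at least 5 of 6 arrays of either group were tested (20829, of which 12293 had a symbol) with limma 3.58.1 in R 4.3.3 on the 12 arrays, and the adjustment was by Benjamini-Hochberg. No probe was saturated. The arrays have no read depth, and 6 rats in each group limit the precision.

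Members and the 38 gene lists were chosen with earlier results of these data known. The genes named are the 10 largest rises and falls among called genes with a symbol, above background in both groups and moving alike in both sexes, up to 3 called members of each list with the smallest p, all clock genes tested, and the 4 genes each way with the smallest p for the difference between the sexes. Other list members are given as examples, and a gene that the rule names is not reported here. Alternatives were other background corrections, scalings, filters, fits and slide blocks and leaving out each rat. On simulated data with 20829 genes, 96% of 200 genes changed by 1 on the log2 scale were called, 82% passed the adjustment, and 178 unchanged genes were called. The simulated arrays varied independently, without slides or sexes, whereas no slide of the data held both doses. These rates may therefore not hold for the data, and they do not show that such changes were absent. The authors' series table held the same signals and was used as an alternative without scaling between arrays.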

Additional observations from a re-analysis of the deposited data

Results flagged for a closer look

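In 97 groups of 6 rats examined for a rat far from the others, 3 gave a ratio of the gap to the range above the 95% critical value of Dixon's test, and chance alone gives about 1 in 20. Hsd11b2 was highest in the low-dose male 8, with a ratio of 0.806 (-1.59, against -3.16 to -2.86 in the other 5). Tubb3 was highest in the high-dose male 18 (0.686, at -5.23). C9h6orf141 was lowest in the high-dose female 38 (0.68, at -6.85).

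The sexes differed in the effect of dose for 419 genes by limma (adjusted p of 0.05). The effect in males minus that in females was 1.44 for Doxl1, 1.66 for Tiam1, 1.06 for Aqp2, 1.21 for Aknad1 (-0.40 with normexp background correction) and 1.12 for Nr1d2. It was -1.6 for Mal, -0.836 for Bnc2 and -0.817 for Ndrg4.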

How the results depend on the processing

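No paired analysis was possible because the rat numbers in the labels are not shared between the doses. The counts of genes higher and lower (166 and 62) were 25 and 31 with normexp background correction, 94 and 78 with quantile normalization, 140 and 72 scaled to the array median, 69 and 188 in the authors' table without scaling (median shift of all genes -0.119), 340 and 270 without the filter, 68 and 55 with the filter on all 12 arrays, 91 and 34 with the slide as a random block of 12 arrays, 346 and 225 with the slide as a fixed block, 608 and 130 in a fit of the males alone, 304 and 481 in a fit of the females alone, and 120 and 64 without the rats 36 and 37. The share of calls that were higher was 72.8%, against 44.6% with normexp, 54.7% with quantile normalization, 66% scaled to the array median and 26.8% in the authors' table. The methods' t-test called 130 higher and 42 lower, none after Benjamini-Hochberg, with 1687 genes at an unadjusted p under 0.05. All 24 arrays, sex as a covariate, the random slide block of 24 arrays, array weights and counting each probe gave 138 to 184 higher and 54 to 79 lower. Leaving out 1 rat gave 116 to 257 higher and 41 to 115 lower. The count higher was 257 without the low-dose female 26. The count lower was 115, 102 and 95 without the high-dose males 16, 17 and 18, and 41 without the high-dose female 37. The adjusted count was 3 over all 24 arrays, 1 in females alone and 0 to 1 with 1 rat left out, being 1 without the low-dose female 27 or the high-dose male 16. It was 0 in the other settings.

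The 419 genes that differed between the sexes became 131 with normexp, 248 with the random slide block, 9 with the fixed slide block, 174 without the rats 36 and 37, and 245 to 376 with 1 rat left out. They were 267 without the low-dose male 6 and 279, 261 and 245 without the high-dose males 16, 17 and 18. The called differences that changed sign were Retn (-0.17) and Per2 (-0.19) with the fixed slide block and Nr4a1 in females alone (0.0251). The sex difference of Aknad1 was -0.40 with normexp. Among uncalled clock genes, Clock was 0.16 with the fixed slide block, Per3 was -0.0395 in females, Per1 was 0.0441 with normexp and 0.028 in females, and Cry1 was 0.0131 with normexp, 0.157 in females and -0.0902 to 0.0714 with 1 rat left out. These alternatives for the rats 36 and 37 and for each sex were chosen after seeing the data. The causes were not tested. Signal near background limits the dim genes, as their levels vary with the background correction.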
